A study of Mus musculus with 36 samples.

Results

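Astrocytes clear glutamate and potassium from the space around neurons, move water at the vessel wall and pass ions and metabolites to each other through gap junctions. In the cerebellum much of this work falls to Bergmann glia, the radial astrocytes that ensheathe Purkinje cell dendrites. A gene set with these functions was followed here through the course of late-infantile neuronal ceroid lipofuscinosis (CLN2 disease) in the mouse, in which loss of the lysosomal protease TPP1 leads to storage in neurons and to gliosis. The set was chosen by gene name for its astrocyte functions, and it holds 10 genes of 55450 in the 1-month count tables, 53379 at 2 months and 54146 at 3 months. The glutamate handling genes are Slc1a2 (the transporter GLT-1), Slc1a3 (the transporter GLAST) and Glul (glutamine synthetase). Kcnj10 encodes the inward rectifier potassium channel Kir4.1 and Aqp4 the water channel of astrocyte endfeet. Gja1 and Gjb6 encode the astrocyte connexins 43 and 30, which form gap junctions. Aldh1l1 (a folate metabolism enzyme), S100b (a calcium-binding protein) and Aldoc (aldolase C, a glycolytic enzyme) are widely used astrocyte markers. Aldoc is also made by a subset of Purkinje cells, and S100b and Glul are found in some oligodendrocytes.

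RNA was taken from the cerebellum (Cb) and from the forebrain and midbrain together (F/M) of Tpp1-/- mice, whose Tpp1 gene carries a targeted disruption in all cells, and of unaffected siblings of the same age. There were 3 libraries in each of 12 groups, at 1, 2 and 3 months of age, 36 in all. The controls were labelled wt, except that the 1-month control numbered 3 was Tpp1+/- in both regions. All mice of 2 months were male, while the 1-month libraries numbered 1 and the 3-month libraries numbered 3 came from females. Tissue was sequenced whole, so more astrocytes and more RNA per astrocyte cannot be told apart in any value below. The labels give libraries of a group separate numbers, and the p-values measure the spread between these libraries.

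Depth was 10609896 to 29942380 counts per library, with a median of 21049839. Tpp1 separated the genotypes at each age and in both regions, with 16.05 to 27.8 CPM (counts scaled to library size by TMM within an age) in Tpp1-/- libraries and 42.1 to 110.8 in controls. The libraries of 2 months stood apart in 1 respect, a near equal weight for the same library number in all 4 groups. In each of the 4 groups of that age, library 3 lay between libraries 1 and 2 for 47.2% to 79.5% of genes with a mean count over 1000, and its best fit was a mix of the other two with a weight on library 1 of 0.47 to 0.55. What remained after that fit was 1.44 to 2.77 times the counting error. Such shares and remainders were not confined to 2 months. At 3 months the share was 60.7% for Cb Tpp1-/- library 3 and 58.1% for Cb control library 1. What remained was 2.73 and 2.15 times the counting error. Their weights on the lower-numbered of the other libraries were 0.09 and 0.906. Whether library 3 of the 2-month groups is a separate animal was not tested. The calls on the 10 genes at 2 months are given with and without the libraries numbered 3. A further 3 libraries, all cerebellar, differed from the other two of their group: Tpp1-/- library 1 of 1 month, and Tpp1-/- library 1 and control library 3 of 3 months. In the Tpp1-/- library 1 of 3 months, genes with transcripts under 2000 bases lay 0.64 higher on the log2 scale than genes with transcripts over 6000 bases, each relative to the mean of that age and region. The same measure was 0.47 in the Tpp1-/- cerebellar library 1 of 1 month and 0.33 in the F/M control library 2 of 2 months. In every other library it lay between -0.285 and 0.088.

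The windows around the RefSeq starts of 4 of the genes are shown because these genes carry the results that follow: Slc1a2 and Slc1a3 had opposite regional patterns, and Kcnj10 and Gja1 passed between genotypes in F/M at 2 months, though not without the libraries numbered 3. Each window has 300 bases on the gene's strand in build GRCm38.p6, most of them upstream of the start. The Slc1a2 window lies inside the longer gene model of the count files, downstream of its first start. Capitals mark matches, on either strand, to TTGGC (part of the binding site of NFI factors, which act in astrocyte development) or to TTCNNNGAA (the palindrome bound by STAT factors). AACAAT (a SOX motif, in 10.7% of all windows) and CACGTG (an E-box, in 7.15%) had no match in any of the 10 windows searched, which belong to the genes other than Aqp4 and include an additional Aldoc start.
Slc1a2, chr2:102706188-102706487, plus strand: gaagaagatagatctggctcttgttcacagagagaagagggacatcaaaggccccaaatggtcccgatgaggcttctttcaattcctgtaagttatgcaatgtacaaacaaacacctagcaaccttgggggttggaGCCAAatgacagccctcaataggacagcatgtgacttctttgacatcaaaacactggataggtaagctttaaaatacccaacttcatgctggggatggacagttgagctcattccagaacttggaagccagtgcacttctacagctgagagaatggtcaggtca
Slc1a3, chr15:8710758-8711057, minus strand: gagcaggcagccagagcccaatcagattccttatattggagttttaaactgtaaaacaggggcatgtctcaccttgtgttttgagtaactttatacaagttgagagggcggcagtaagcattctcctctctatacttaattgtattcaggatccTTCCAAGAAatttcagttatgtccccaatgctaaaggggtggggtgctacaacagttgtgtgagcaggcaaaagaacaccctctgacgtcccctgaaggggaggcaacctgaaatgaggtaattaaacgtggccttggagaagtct
Kcnj10, chr1:172340960-172341259, plus strand: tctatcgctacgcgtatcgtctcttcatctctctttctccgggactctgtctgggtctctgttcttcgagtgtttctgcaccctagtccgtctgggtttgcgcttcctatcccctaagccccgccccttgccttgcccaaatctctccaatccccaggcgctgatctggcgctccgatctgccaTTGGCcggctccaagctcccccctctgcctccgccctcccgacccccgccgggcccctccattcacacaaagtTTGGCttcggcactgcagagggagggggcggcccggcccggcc
Gja1, chr10:56377050-56377349, plus strand: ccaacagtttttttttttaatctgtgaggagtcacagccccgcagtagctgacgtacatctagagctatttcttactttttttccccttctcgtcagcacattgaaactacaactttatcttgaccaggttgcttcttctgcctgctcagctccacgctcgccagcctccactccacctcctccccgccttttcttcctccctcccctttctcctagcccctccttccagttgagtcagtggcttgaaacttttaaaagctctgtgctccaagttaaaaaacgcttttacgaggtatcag
TTGGC occurred in 46.7% of the 32851 windows of this length that were searched and in 5 of the 10 windows searched here. TTCNNNGAA occurred in 8.3% of all windows and in 2 of the 10, those of Slc1a3 and of one of the Aldoc starts. Slc1a2 and Kcnj10 both held TTGGC and Gja1 held none of the 4 motifs. A match is a description of letters only. The 4 windows are RefSeq sequence. In the mm10 gene models of the 2-month files Slc1a2 spans chr2:102658659-102790784, Slc1a3 chr15:8634124-8710764, Kcnj10 chr1:172341210-172374085 and Gja1 chr10:56377330-56402513, and values are sums over all exons of a gene.

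In control mice the set split by region. S100b, Aqp4, Aldoc and Slc1a3 were higher in Cb at every age, Slc1a2 and Glul were lower in Cb at every age, and the remaining 4 differed by 0.41 or less on the log2 scale. At 1 month 7 of the 10 genes passed an adjusted p under 0.1 between Cb and F/M controls, where 59.4% of all genes tested did. At 2 months 9 of 10 passed against 70.1% of all genes, and 8 did without the libraries numbered 3, with Glul lost and the log2 differences of the other 8 between -1.07 and 1.77. Among them Gjb6 (adjusted p = 0.057) was nearest to the threshold. At 3 months 7 of 10 passed against 57.8%. The share that passed was therefore close to that of all genes, and it is the direction and the size for each gene that describe the set.

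**Figure D1:**
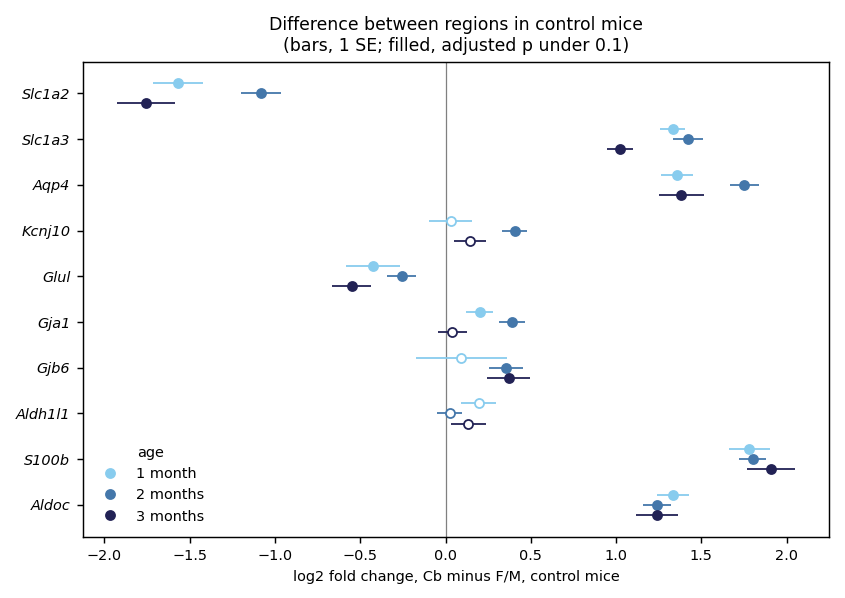
Log2 fold change between cerebellum and forebrain/midbrain in control mice for each of the 10 genes (x axis, Cb minus F/M; bars, 1 SE) at 1, 2 and 3 months (colours), with filled points at an adjusted p under 0.1. Slc1a2 lies between -1.76 and -1.08, while S100b lies between 1.78 and 1.91.

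Slc1a2 was at 4215, 4473 and 4402 CPM in the 1-month F/M controls and at 1467, 1477 and 1471 CPM in the Cb controls. The libraries of the regions did not overlap, and the cerebellar level was 2.96-fold lower (log2 -1.57 ± 0.15, SE). At 2 months the log2 difference was -1.08 ± 0.12 and at 3 months -1.76 ± 0.17, with adjusted p-values of 8.39e-07 or less at all 3 ages (edgeR quasi-likelihood test, Benjamini-Hochberg over all genes). The smallest difference fell at the age at which the F/M controls themselves spread from 2506 to 3650 CPM.

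Slc1a3, the other glutamate transporter, ran the opposite way. It was at 648.1, 658.8 and 669.7 CPM in 1-month F/M controls and at 1611, 1732 and 1631 CPM in Cb controls, a log2 difference of 1.33 ± 0.07. The difference was 1.42 ± 0.09 at 2 months and 1.02 ± 0.07 at 3 months. Read per kilobase of exon, which allows the transporters to be compared with each other, Slc1a2 stood at 332.2 ± 10.2 (SD, n = 3) CPM per kilobase in 1-month F/M controls and Slc1a3 at 77.2 ± 1.3. In the Cb controls Slc1a2 stood at 112.1 ± 0.4 and Slc1a3 at 194.2 ± 7.6, so the order of the transporters was reversed between the regions.

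Glul, which turns the glutamate taken up into glutamine, was lower in Cb by a smaller margin, with log2 differences of -0.43 ± 0.16, -0.26 ± 0.09 and -0.55 ± 0.11 at 1, 2 and 3 months (adjusted p = 0.032, 0.014 and 9.1e-04 in edgeR). At 1 month Glul was at 964.5, 1223 and 1303 CPM in F/M controls and at 661.9, 987.0 and 949.2 CPM in Cb controls. F/M library 1 lay below the highest Cb library, while within each of the 3 same-numbered pairs Cb was lower. Without F/M control library 3 or without Cb control library 1 the 1-month difference no longer passed, with adjusted p-values of 0.13 and 0.15. Without library 3 of the 2-month groups, Glul at 2 months did not pass either (-0.25, adjusted p = 0.17).

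S100b had the largest rise toward the cerebellum. It was at 98.5, 106.1 and 98.5 CPM in 1-month F/M controls and at 332.4, 401.6 and 307.9 CPM in Cb controls, and the log2 differences were 1.78 ± 0.12, 1.80 ± 0.08 and 1.91 ± 0.14 at the 3 ages. S100b lies opposite to part of Dip2a, which had 24402 to 29784 counts per age against 67069 to 77458 for S100b, and reads were assigned by strand. Aqp4 was 1.36 ± 0.09, 1.75 ± 0.08 and 1.38 ± 0.13 higher on the log2 scale in Cb, and Aldoc 1.34 ± 0.09, 1.24 ± 0.08 and 1.24 ± 0.12. For these 3 genes and Slc1a3 no library of one region overlapped with the other at any age, and all adjusted p-values were 1.16e-06 or less.

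The gap junction and potassium channel genes differed less between regions. Gja1 passed at 1 month (0.20 ± 0.08, adjusted p = 0.044), a call lost without F/M control library 1 or Cb control library 2 (adjusted p = 0.17 and 0.19), and at 2 months (0.39 ± 0.08, adjusted p = 2.2e-04) but not at 3 months (0.04 ± 0.09). Gjb6 passed at 2 months (0.36 ± 0.10) and 3 months (0.37 ± 0.13), and Kcnj10 only at 2 months (0.41 ± 0.07, adjusted p = 8.9e-05). Kcnj10 also passed at 3 months with a correction for transcript length and GC content (adjusted p = 0.0097) and with library totals in place of TMM scaling (adjusted p = 0.031), and without the Cb control library 3 that stood apart (adjusted p = 0.062). Aldh1l1 passed at no age in the model without a block, with differences of 0.19 ± 0.10, 0.02 ± 0.07 and 0.13 ± 0.11. At 1 month, where same-numbered libraries of the regions deviated together, Aldh1l1 was higher in Cb in all 3 pairs and passed with the replicate block (0.20, adjusted p = 0.071), as it did with sex as a covariate (adjusted p = 0.087) and with the length and GC trend removed (adjusted p = 0.076). With library totals, a scaling that moved the median of all genes from 0.04 to 0.15 at 3 months, Aldh1l1 passed at 1 month and 3 months (adjusted p = 0.068 and 0.07).

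Per kilobase of exon the order of the 10 genes in F/M controls began with Glul, at 350.1 ± 53.2, 459.2 ± 2.5 and 430.9 ± 7.2 CPM per kilobase at 1, 2 and 3 months, followed by Slc1a2 and then Aldoc at 1 and 3 months. At 2 months Aldoc (242.6 ± 30.5) and Slc1a2 (235.4 ± 43.6) came next, with overlapping libraries. In Cb controls Aldoc came first at each age, at 466.3 ± 28.6, 573.1 ± 3.4 and 542.6 ± 75.6 CPM per kilobase. Aldh1l1 was the lowest of the set in every region and age, between 12.98 and 16.7 CPM per kilobase. The neighbours in F/M whose libraries overlapped were Glul and Slc1a2 at 1 month, Aldoc and Slc1a2 and also Gjb6 and Aqp4 at 2 months, Slc1a3 and S100b at 3 months, and Gja1 and Gjb6 at 1 month. In Cb they were Glul and S100b at 1 and 3 months, Aqp4 and Slc1a2 at all 3 ages, and Gja1 and Gjb6 at 1 and 3 months. The exon length of Aqp4 was 6233 bases in the annotation used for 1 month and 5082 bases for the later ages, so its value per kilobase is not on one footing between those ages.

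**Figure D2:**
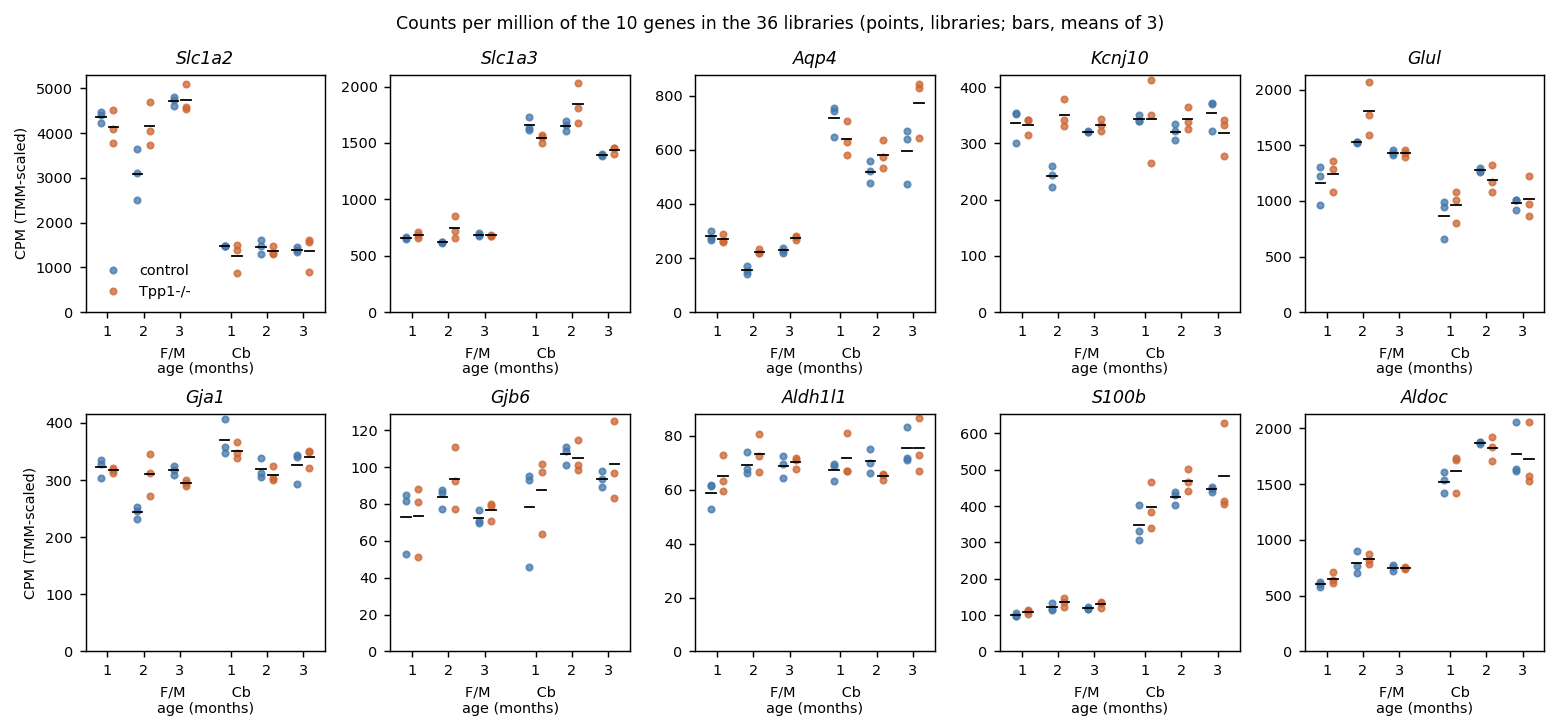
CPM, scaled by TMM within each age (y axis, from 0), for each of the 10 genes in all 36 libraries, by region and age (x axis) and genotype (colour); bars are means of 3 libraries. In F/M at 2 months the Kcnj10 controls sit between 222.8 and 259.8, below all 3 Tpp1-/- libraries.

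The Tpp1-/- mice were compared with controls in each region and age. In F/M at 2 months all 10 genes had a positive log2 fold change, with a median of 0.26 against 0.00 over all genes tested, of which 50.8% were positive. Of the 10, 4 passed an adjusted p under 0.1 and all 4 were higher in Tpp1-/- mice: Kcnj10, Aqp4, Gja1 and Slc1a2. Over all genes 3.17% (546 genes) passed in either direction and 2.26% were higher. That number rested on single libraries: it was 2193 without control library 1 and 1019 without Tpp1-/- library 2, but 39 and 60 without Tpp1-/- libraries 1 and 3, 77 without control library 3, and 94 in the fit of the 6 libraries alone. None of the 10 reached the fold change of at least 1.5 that the study asked of a differentially expressed gene, whereas 0.737% of all genes both passed and reached it. When the 2-month libraries numbered 3 were left out, none of the 10 passed in the same comparison, and over all genes 10 of 17414 did. The log2 fold changes of the 10 were again all positive, with a median of 0.28. The calls were thus lost without the libraries numbered 3, while the median hardly moved. Each of these was close to a mix of libraries 1 and 2 of its group. Leaving them out could therefore hardly move the signs or the median, and the stability of both is not separate evidence.

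**Figure D3:**
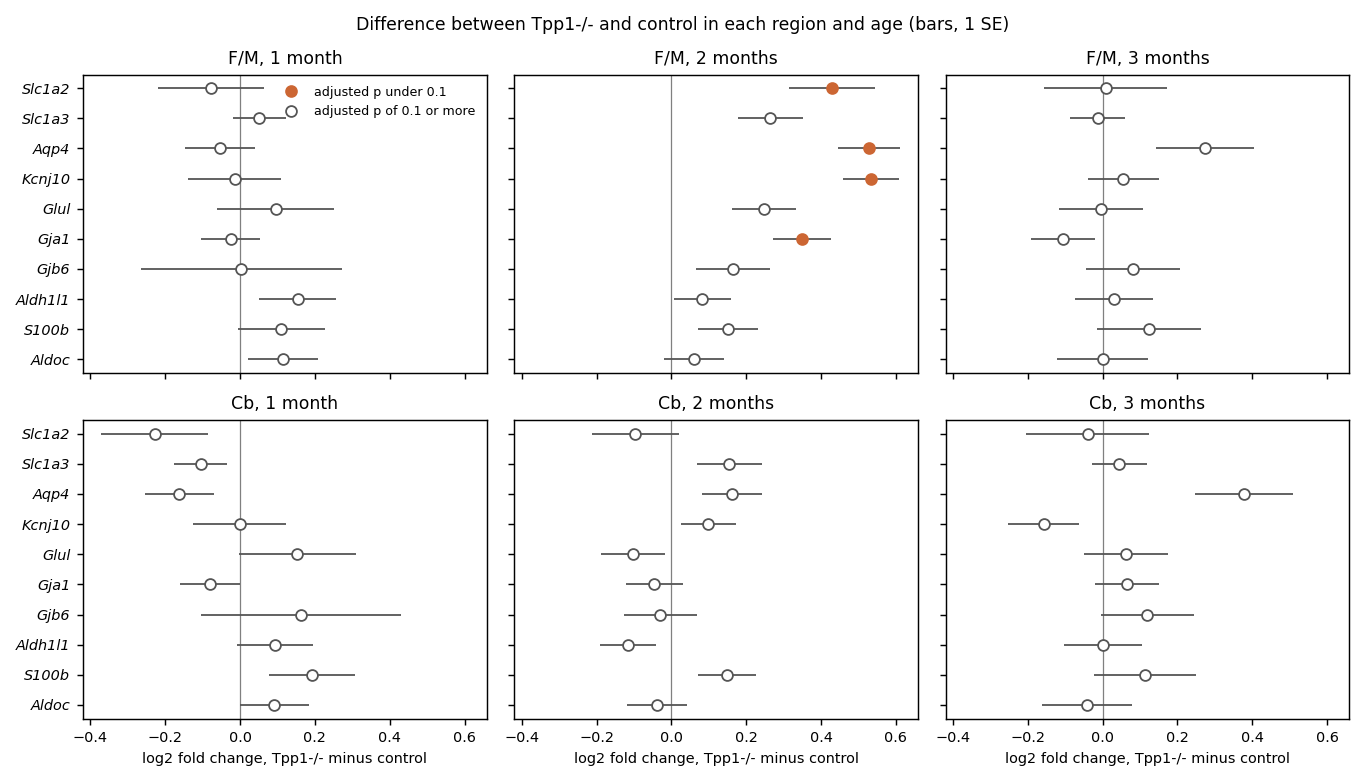
Log2 fold change of Tpp1-/- over control (x axis; bars, 1 SE) for the 10 genes in each region (rows) and age (columns), with filled points at an adjusted p under 0.1. The filled points are Kcnj10, Aqp4, Slc1a2 and Gja1 in F/M at 2 months, between 0.35 and 0.53.

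Kcnj10 was at 259.8, 222.8 and 244.0 CPM in the 2-month F/M controls and at 379.7, 330.6 and 341.2 CPM in the Tpp1-/- libraries. All Tpp1-/- libraries lay above all controls, and the rise was 1.45-fold (log2 0.53 ± 0.07 SE, adjusted p = 0.002). It passed in 14 of 15 alternative analyses, the exception being the fit without the libraries numbered 3 (0.56, adjusted p = 0.39).

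Aqp4 was at 169.9, 139.5 and 153.4 CPM in controls and at 231.9, 217.5 and 217.4 CPM in Tpp1-/- libraries, again without overlap. The rise was 1.44-fold (log2 0.53 ± 0.08, adjusted p = 0.0076), and it too passed in all but the fit without the libraries numbered 3 (0.54, adjusted p = 0.58).

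Gja1 was at 253.5, 231.4 and 245.8 CPM in controls and at 345.4, 272.8 and 311.9 CPM in Tpp1-/- libraries, 1.27-fold higher (log2 0.35 ± 0.08, adjusted p = 0.04). The lowest Tpp1-/- library was above the highest control by a small margin. The call was lost without library 3 of either group (adjusted p = 0.14 and 0.16), without Tpp1-/- library 1 (0.25), without both libraries numbered 3 (0.85) and in the fit of the 6 libraries alone (0.16).

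Slc1a2 was at 3650, 2506 and 3116 CPM in controls and at 4703, 3730 and 4050 CPM in Tpp1-/- libraries, 1.35-fold higher (log2 0.43 ± 0.12, adjusted p = 0.076). The groups did not overlap, though the highest control came close to the lowest Tpp1-/- library. This call passed in 9 of 15 alternatives. It was lost without control library 2 (0.30, adjusted p = 0.18), without Tpp1-/- library 1 (0.33, adjusted p = 0.34) without library 3 of either group (adjusted p = 0.20 and 0.21), and in the fit of the 6 libraries alone (0.21).

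The other 6 genes of the set did not pass in F/M at 2 months. Slc1a3 (0.26 ± 0.09, adjusted p = 0.14) and Glul (0.25 ± 0.09, adjusted p = 0.16) came nearest, and in both the libraries of the genotypes did not overlap. DESeq2 called both (adjusted p = 0.085 and 0.098). Gjb6, S100b, Aldh1l1 and Aldoc had log2 fold changes of 0.16, 0.15, 0.08 and 0.06 with overlapping libraries and adjusted p-values of 0.36 to 0.76. The libraries of the genotypes were apart for 6 of the 10 genes, where they were apart for 18.3% of all genes tested.

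Some other measures moved with this comparison. Transcript length moved with the group means in F/M at 2 months, with a median log2 fold change over all genes of -0.04 for transcripts under 2000 bases and 0.09 for those over 6000 bases. This trend was not shared by all libraries. Relative to the mean of the 6, genes over 6000 bases had medians of 0.103, -0.209 and -0.034 in control libraries 1, 2 and 3 and of 0.028, 0.075 and 0.041 in Tpp1-/- libraries, so that control library 1 lay above every Tpp1-/- library and control library 2 far below. Control library 2 also held the lowest control value of Slc1a2, Aqp4, Kcnj10 and Gja1. Without it Kcnj10 (0.48, adjusted p = 0.003), Aqp4 (0.46, adjusted p = 0.011) and Gja1 (0.31, adjusted p = 0.071) passed and Slc1a2 did not. The longest transcripts of the set belong to Slc1a2 (11595 bases), Kcnj10 (5407) and Aqp4 (5054), which were 3 of the 4 genes that passed. After a trend over transcript length and GC content was removed from each library, Kcnj10, Aqp4, Gja1, Slc1a2 and also Glul (adjusted p = 0.06) passed. Markers of oligodendrocyte precursors summed to 166.2 to 239.8 CPM in Tpp1-/- libraries against 148.1 to 178.6 in controls, endothelial markers to 206.9 to 282.4 against 199.9 to 211.1, and the 12 choroid plexus markers to 551.3 to 753.5 against 249.3 to 641.7. Of the latter, 9 passed and all 9 were higher in Tpp1-/- mice, while 0 passed in edgeR without the libraries numbered 3, with all 12 positive. None of the markers on these lists was at 3 counts or fewer in all libraries of a group. The 10 midbrain and thalamus markers summed to 363.1 to 384.9 CPM against 269.1 to 351.3, the 8 forebrain markers to 536.6 to 591.7 against 608.0 to 619.2, and the 8 cerebellum markers to 95.7 to 107.5 against 77.6 to 88.5. The part of these in the result was not tested.

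**Figure D4:**
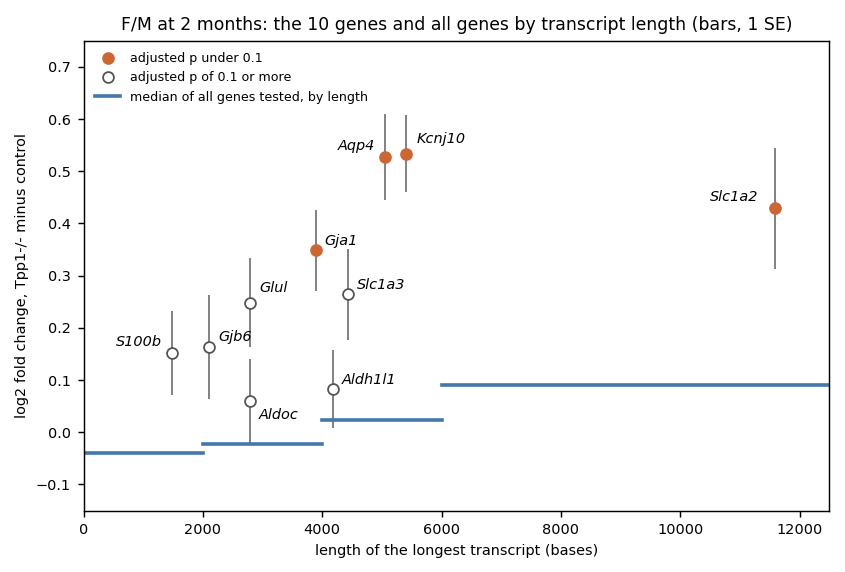
Log2 fold change of Tpp1-/- over control in F/M at 2 months (y axis; bars, 1 SE) against the length of each gene's longest transcript (x axis, bases) for the 10 genes, with lines for the median of all genes tested in 4 length classes. The lines rise from -0.04 to 0.09, and the 10 genes lie between 0.06 and 0.53.

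The level of these genes at the other ages puts the comparison in context. Each age was counted and scaled on its own, so the ages stand side by side here without a test. In F/M controls Kcnj10 averaged 336.0 ± 30.6 (SD, n = 3), 242.2 ± 18.6 and 320.8 ± 1.6 CPM at 1, 2 and 3 months, and in Tpp1-/- mice 332.6 ± 15.1, 350.5 ± 25.8 and 333.3 ± 10.6. Gja1 averaged 322.5 ± 16.3, 243.6 ± 11.2 and 317.0 ± 7.9 CPM in controls and 317.0 ± 4.1, 310.0 ± 36.3 and 294.7 ± 5.3 in Tpp1-/- mice. Slc1a2 averaged 4363 ± 133, 3091 ± 572 and 4714 ± 103 CPM in controls and 4135 ± 367, 4161 ± 496 and 4739 ± 312 in Tpp1-/- mice. For these 3 genes, which had passed at 2 months, the lowest F/M mean was that of the 2-month controls. Slc1a3 controls were also lowest at 2 months, at 658.9, 618.3 and 687.3 CPM over the 3 ages. Glul, Gjb6, Aldoc, S100b and Aldh1l1 controls were instead highest at 2 months, Glul at 1163, 1526 and 1432 CPM. Which genotype the 2-month difference lies in was not tested. Aqp4 is set out per age only from 2 to 3 months, because its exons were counted over a longer gene model at 1 month. Its F/M means at 2 and 3 months were 154.3 ± 15.3 and 228.0 ± 11 CPM in controls and 222.3 ± 8.3 and 275.7 ± 7.5 in Tpp1-/- mice, lower at 2 months in both genotypes. In Cb controls Kcnj10 averaged 342.9 ± 6.4, 320.8 ± 14.8 and 354.6 ± 28.2 CPM at the 3 ages and Slc1a2 1472 ± 5, 1462 ± 161 and 1394 ± 60. Aqp4 averaged 519.4 ± 41.0 CPM at 2 months and 594.5 ± 106.0 at 3 months there.

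In Cb at 2 months none of the 10 genes passed in edgeR, where 3.08% of all genes did. None had an unadjusted p under 0.05, and DESeq2 and limma-voom called none. The log2 fold changes ran from -0.12 (Aldh1l1) to 0.16 (Aqp4), with a median of -0.03. The libraries were apart for 2 of the 10, against 18.1% of all genes: Aldh1l1, at 66.2, 75.2 and 70.0 CPM in controls and 66.0, 65.5 and 63.6 in Tpp1-/- mice, and S100b, at 438.5, 402.9 and 430.5 CPM in controls and 440.7, 501.5 and 466.9 in Tpp1-/- mice. In these libraries the midbrain and thalamus markers summed to 150.6 to 177.7 CPM in Tpp1-/- mice and to 257.3 to 306.0 in controls, and 8 of 10 were lower at an adjusted p under 0.1, or 6 of 10 without the libraries numbered 3. The choroid plexus markers summed to 1655 to 1833 CPM in Tpp1-/- mice against 1008 to 1305 in controls. Oligodendrocyte markers summed to 5459 to 6887 against 6637 to 6952. Without the libraries numbered 3 none of the 10 genes passed in Cb either, and over all genes 229 did against 530.

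The difference of the genotype effect between Cb and F/M at 2 months was itself tested, and 2 of the 10 genes passed, against 2.97% of all genes. The effect on Kcnj10 was smaller in Cb by 0.43 ± 0.10 on the log2 scale (adjusted p = 0.032) and that on Gja1 by 0.39 ± 0.11 (adjusted p = 0.078). Slc1a2 (-0.52 ± 0.16, adjusted p = 0.13), Aqp4 (-0.37 ± 0.12, adjusted p = 0.14) and Glul (-0.35 ± 0.12, adjusted p = 0.20) had differences of similar size that did not pass. Slc1a2 did pass in 7 of 20 alternatives, among them DESeq2 (adjusted p = 0.084) and library totals (0.094), and Aqp4 and Glul passed in 5 of 20 each. Without the libraries numbered 3 neither Kcnj10 (-0.42, adjusted p = 0.76) nor Gja1 (-0.40, adjusted p = 0.92) passed, and over all genes 167 did against 511. The Kcnj10 call was also lost without F/M Tpp1-/- library 1 or Cb control library 2 (adjusted p = 0.11 for each). The Gja1 call held in 11 of 20 alternatives and was lost without F/M Tpp1-/- library 1, F/M library 3 of either genotype, Cb control library 2 or 3, or Cb Tpp1-/- library 1 or 3 (adjusted p = 0.14 to 0.24). With the replicate block Gja1 did not pass (adjusted p = 0.15), and Glul did (adjusted p = 0.052).

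At 1 month no gene of the set passed in either region in edgeR, DESeq2 or limma-voom, and none had an unadjusted p under 0.05 in edgeR. Over all genes 0.0112% passed in F/M and 0.0112% in Cb, 2 genes in each. Without Tpp1-/- library 3 the number in Cb was 1465 of 18305 genes, and none of the 10 was among them (lowest adjusted p = 0.14, S100b). The log2 fold changes lay between -0.08 (Slc1a2) and 0.15 (Aldh1l1) in F/M and between -0.23 (Slc1a2) and 0.19 (S100b) in Cb. The libraries of the genotypes overlapped for all 10 genes in F/M, where they were apart for 14.8% of all genes, and for all but Slc1a3 in Cb, where they were apart for 7.97%. Slc1a3 was at 1611, 1732 and 1631 CPM in Cb controls and at 1574, 1499 and 1549 in Tpp1-/- mice, a log2 fold change of -0.11 ± 0.07 (adjusted p = 0.68). The lowest Slc1a2 value of the age, 885.9 CPM, was in the Tpp1-/- cerebellar library 1, whose long transcripts were low. The difference of the effect between regions passed for none of the 10 genes or of all genes tested (0%), with 0 of the 10 and 347 of all genes at an unadjusted p under 0.05.

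At 3 months the set again had no gene that passed in edgeR, DESeq2 or limma-voom. Over all genes 0.488% (84 genes) passed in F/M and 0.952% (164 genes) in Cb. In F/M 34 to 54 passed without any 1 library other than Tpp1-/- library 3, and 66 without that one. In Cb 467 passed without Tpp1-/- library 1 and 268 without control library 3. The median log2 fold change of the 10 was 0.02 in F/M and 0.05 in Cb. In F/M none of the 10 had an unadjusted p under 0.05, and in Cb Aqp4 alone did (0.012 in the edgeR quasi-likelihood test).

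Aqp4 was the gene of the set nearest to a change at 3 months. In F/M it was at 227.9, 217.0 and 239.0 CPM in controls and at 267.7, 282.6 and 277.0 CPM in Tpp1-/- mice, without overlap (log2 0.27 ± 0.13, adjusted p = 0.85). In Cb it was at 638.4, 671.6 and 473.6 CPM in controls and at 644.1, 830.1 and 843.4 CPM in Tpp1-/- mice, with overlap (log2 0.38 ± 0.13, adjusted p = 0.48). Its highest control exceeded its lowest Tpp1-/- library, library 1, and that library was the one with low counts for long transcripts. Without that library the cerebellar difference was 0.49 and passed (adjusted p = 0.05), and with the length and GC trend removed it was 0.35 in Cb (adjusted p = 0.0033) and 0.22 in F/M (adjusted p = 0.099). In a fit of the 6 F/M libraries alone Aqp4 passed (0.28, adjusted p = 6.3e-04), as did Gja1 in the other direction (-0.10, adjusted p = 0.098), and 1801 of all genes passed in that fit against 84 in the fit with the cerebellar libraries.

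The remaining genes moved little at 3 months. In F/M the libraries were apart for 3 of the 10, against 24.1% of all genes: Aqp4, Gja1 (308.6, 318.3 and 324.2 CPM in controls against 294.7, 289.4 and 300.0) and Kcnj10 (322.6, 320.2 and 319.5 against 343.8, 333.5 and 322.6, where the nearest libraries differ by less than the rounding). In Cb they were apart for 0 of the 10, against 8.67% of all genes. Slc1a2 in Cb was at 1454, 1394 and 1335 CPM in controls and at 898.1, 1605 and 1566 CPM in Tpp1-/- mice. The low value was again library 1, in which S100b (627.1 CPM against 406.0 and 413.4) and Aldoc (2053 CPM against 1531 and 1576) were high. The longest transcripts of these genes have 1484 and 2786 bases. Aldoc was also high in control library 3, at 2055 CPM against 1635 and 1621. The region difference of the effect passed for none of the 10, against 0.00581% of all genes, and none had an unadjusted p under 0.05.

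The change of the genotype effect with age was tested over all 36 libraries. From 1 to 3 months no gene of the set passed in edgeR, against 0.153% of all genes in F/M and 0.458% in Cb. Aqp4 alone had an unadjusted p under 0.05 in each region, with changes of 0.34 ± 0.16 in F/M and 0.54 ± 0.15 in Cb (adjusted p = 0.88 and 0.18), and DESeq2 called the latter (adjusted p = 0.097). The Aqp4 change in Cb also passed without the 3-month Tpp1-/- library 1 (0.65, adjusted p = 0.018), where 1590 of all genes passed against 84 with it, and without the 3-month control library 2 (0.64, adjusted p = 0.081). From 2 to 3 months the effect on Gja1 in F/M fell by 0.45 ± 0.11 on the log2 scale (adjusted p = 0.087), the only gene of the set to pass, against 0.393% of all genes (72 genes, and 24 to 101 with 1 library left out). All 10 genes had a negative change there, in a comparison that shares the 2-month F/M libraries with the one above. That call was lost without the 2-month libraries numbered 3 (adjusted p = 0.51) with the replicate block (adjusted p = 0.16), and in each fit that left out 1 of the F/M libraries of those ages other than Tpp1-/- library 2 of 2 months. In Cb none of the 10 passed from 2 to 3 months, against 1.44% of all genes, and none had an unadjusted p under 0.05.

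The wider astrocyte lists gave a setting for the 10 genes. In F/M at 2 months 5 of 27 other genes of resting astrocytes passed and all 5 were higher in Tpp1-/- mice, 26 of the 27 log2 fold changes were positive, and their median was 0.17, where 3.17% of all genes passed, 2.26% as higher. They were led by Dio2 (deiodinase 2, 0.57 ± 0.15), Slc6a11 (the GABA transporter GAT-3, 0.54 ± 0.11) and Slc39a12 (a zinc transporter, 0.39 ± 0.09). Of 13 genes of potassium and water handling 3 passed, all higher: Kcnj16 (Kir5.1, the partner of Kir4.1, 0.52 ± 0.13), Slc12a2 (the cotransporter NKCC1, 0.30 ± 0.07) and Atp1b2 (a sodium pump subunit, 0.24 ± 0.06). Of 14 genes of the glutamate and glutamine cycle only Slc25a18, a mitochondrial glutamate carrier, passed (0.34 ± 0.07). On that list 6 of the 14 were positive, with a median of -0.03. Of 7 connexin and gap junction genes none passed, with 5 positive and a median of 0.03. Of 14 genes of astrocyte metabolism Aldh1a1 was higher (0.35 ± 0.08) and Ldha lower (-0.31 ± 0.08). Of 8 Bergmann glia genes only Ptprz1 passed (0.39 ± 0.09). The medians of the potassium and water, metabolism and Bergmann glia lists were 0.21, 0.13 and 0.11, with 12 of 13, 11 of 14 and 6 of 8 positive. Without the libraries numbered 3 none of the genes on these 6 lists passed in F/M, and 24 of the 27 other genes of resting astrocytes were positive, with a median of 0.14.

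In Cb at 2 months Slc6a11 alone of these 6 lists passed. The other genes of resting astrocytes were positive in 9 of 27 there, with a median of -0.08, and the Bergmann glia genes, in the region that holds these cells, in 7 of 8, with a median of 0.16. Slc6a11 was 2.17-fold lower in Tpp1-/- mice (log2 -1.12 ± 0.12, adjusted p = 4.8e-06 in edgeR). In the same libraries the midbrain and thalamus markers were also low and the choroid plexus markers high, and the part of these was not tested. Without the libraries numbered 3 Slc6a11 again passed (-1.11, adjusted p = 0.0038). At 1 month and 3 months none of the genes on the 6 lists passed in either region. Of the Bergmann glia genes all 8 passed as higher in Cb controls at 1 and 2 months and 7 of 8 at 3 months, and 6 of 8 at 2 months without the libraries numbered 3, with list medians of 1.62 to 1.69 on the log2 scale. Of all genes 59.4%, 70.1% and 57.8% passed there in either direction.

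**Figure D5:**
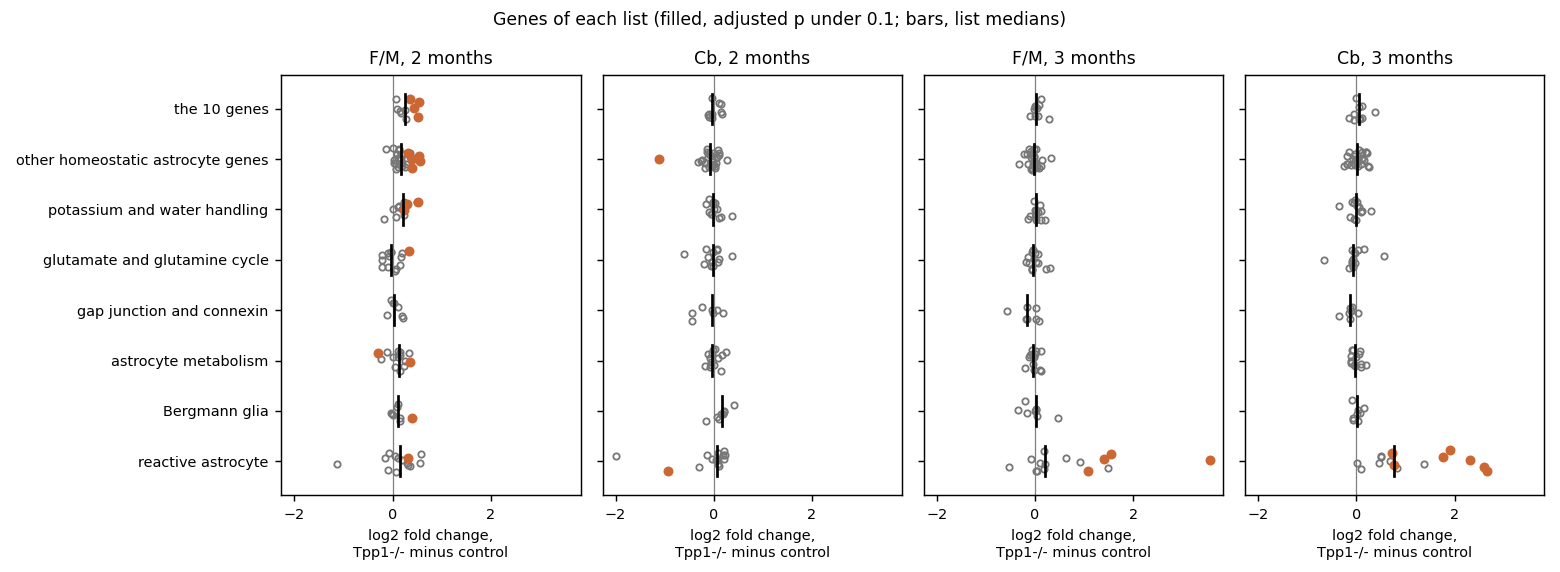
Log2 fold change of Tpp1-/- over control (x axis) for every tested gene of the 10 and of 7 further lists (rows), in F/M and Cb at 2 and 3 months (panels), with filled points at an adjusted p under 0.1 and bars at list medians. At 3 months the filled points are all in the reactive astrocyte row, 4 in F/M and 7 in Cb.

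Reactive astrocyte genes are those that glia raise on injury. At 3 months 4 of 15 passed in F/M and 7 of 15 in Cb, all higher, against 0.488% and 0.952% of all genes in either direction. The list median was 0.19 on the log2 scale in F/M and 0.77 in Cb, against 0.15 and 0.07 at 2 months. Each median is over the genes of the list tested at that age. These were 15 at 3 months, and 14 at 2 months in the fit without the libraries numbered 3. This list was drawn up with results of these samples known, so its count is not independent evidence of direction. Gfap, the intermediate filament of reactive astrocytes, was at 172.0, 179.2 and 164.9 CPM in F/M controls and 447.8, 496.8 and 425.7 CPM in Tpp1-/- mice, 2.66-fold higher (adjusted p = 3.6e-05). In Cb Gfap was at 187.6, 180.0 and 169.2 CPM in controls and 725.5, 514.1 and 584.8 CPM in Tpp1-/- mice, 3.4-fold higher (adjusted p = 2.8e-06). C4b (complement component 4, 2.94-fold and 3.75-fold) and Serpina3n (a serine protease inhibitor, 2.11-fold and 6.03-fold) were higher in F/M and Cb in the same libraries in which none of the 10 genes passed. Cxcl10, a chemokine, had the largest fold in both regions (11.7-fold and 6.35-fold), and Timp1, an inhibitor of metalloproteinases, was 4.96-fold higher in Cb. Markers of microglia, 13 in all, summed to 695.1 to 767.6 CPM in F/M and 399.8 to 624.2 in Cb of Tpp1-/- mice against 514.7 to 547.6 and 187.7 to 231.1 in controls, and their part in the reactive list was not tested. At 2 months Gfap passed in F/M (1.24-fold, adjusted p = 0.047) but not without the libraries numbered 3, and Serpina3n was lower in Cb (log2 -0.93 ± 0.16, adjusted p = 0.0016), also without them (-0.90, adjusted p = 0.081).

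Among themselves the 10 genes did not vary as one. After centring on the mean of each age and region, the median Pearson r over the 45 pairs was 0.28 across 36 libraries, and 35 pairs were positive. Glul and Gjb6 were the closest pair (r = 0.91), followed by Slc1a2 and Kcnj10 (0.76) and S100b and Aldoc (0.72). Slc1a2 ran against S100b (-0.53) and Aldoc (-0.50). These values describe libraries that share depth, dissection and transcript length trends, and Slc1a2 and S100b have the longest and the shortest transcripts of the set. Glul and Gjb6 were both low in library 1 of all 4 groups of 1 month, the libraries from females. Gjb6 was at 53.0, 51.0, 46.0 and 63.5 CPM there and at 81.2 to 101.5 CPM in the other 8 libraries of that age. The females of 3 months showed no such low value, with Gjb6 between 77.0 and 98.1 CPM.

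The genes outside the set whose pattern was most like the mean of the 10, over 36 libraries and 14147 genes, were Zcchc24 (r = 0.85), Timp3 (0.82), Paqr8 (0.81), Rab31 (0.80), Rin2 (0.79), Aldh1a1 (0.78), Fgf1 (0.77) and Ctnna1 (0.77). Without the 6 F/M libraries of 2 months the same 8 genes had r between 0.61 and 0.86. Aldh1a1 was the only one of the 8 on the astrocyte lists.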

How the data were processed

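Total RNA of Cb and F/M was made into stranded libraries and read as single ends of 50 bases. The authors aligned the reads to mm10 with STAR (2.5.2b) and counted them per gene with featureCounts. The deposited values are raw counts, with headers giving featureCounts 1.6.3 and GENCODE M21 at 1 month, 1.6.2 and M16 at 2 months and 1.6.2 and M18 at 3 months, and strand settings of 1, 2 and 1. Genes overlapping the members on the other strand had few counts at every age, except Dip2a beside S100b.

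Here each age was modelled with its 12 libraries as 4 groups sharing 1 estimate of the spread, in edgeR 4.0.16 (TMM scaling, filterByExpr, two-sided quasi-likelihood F test). P-values were adjusted by Benjamini-Hochberg across the 17916, 17229 or 17224 genes tested. All 10 members passed the filter at each age. A gene passed at an adjusted p under 0.1. Changes of effect with age were fitted over all 36 libraries and the 18322 genes tested by shared ID. CPM are TMM-scaled, and values per kilobase use the exon length in the file. Marker lists are given as summed CPM. The code was tested on simulated data. Alternatives were DESeq2 1.42.0, limma-voom (limma 3.58.1), RLE or library totals in place of TMM, no low-count filter, a replicate block, sex as a covariate, the 6 libraries compared alone, and each library left out. A fit with a length and GC trend removed and one without the 2-month libraries numbered 3 were added after seeing the data.

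The members were those named for this gene set. All 10 are named, with at most 3 passing genes of each list by largest fold change, Tpp1, Gfap, C4b and Serpina3n as checks, and the 8 genes most like the members' mean. Members and lists were chosen with earlier results of these data known. Same-numbered F/M and Cb libraries deviated together at 1 month, with correlations of 0.10 to 0.26 in all 6 pairs, and count as paired there. The model without a block was kept, and the blocked value is given where it changes a call. Between genotypes at 1 month, same-numbered libraries correlated at 0.295, 0.079 and 0.197 in F/M and at 0.211, -0.147 and 0.31 in Cb. The libraries numbered 1 were from females in both genotypes there. At 2 and 3 months all such correlations, between regions or genotypes, lay between -0.082 and 0.206. Those samples, and the genotypes at 1 month, were not taken as pairs. Each member had at least 758 counts in each library. In some groups the spread between libraries was close to counting error.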

Additional observations from a re-analysis of the deposited data

Results flagged for a closer look

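The Tpp1-/- effect on Kcnj10 differed between regions at 2 months in a test of the difference itself, with Cb minus F/M at -0.43 on the log2 scale (adjusted p = 0.032). Kcnj10 rose in F/M by 0.53 and had a log2 fold change of 0.10 in Cb. The same test passed for Gja1 at -0.39 (adjusted p = 0.078), with 0.35 in F/M and -0.05 in Cb. The Tpp1-/- effect on Gja1 in F/M also differed between ages, at -0.45 for 3 months minus 2 months (adjusted p = 0.087), with 0.35 at 2 months and -0.11 at 3 months. These 3 results share the 6 F/M libraries of 2 months, and none passed without the libraries numbered 3 of that age. Single libraries also ended these calls. The Kcnj10 difference was lost without F/M Tpp1-/- library 1 or Cb control library 2 (adjusted p = 0.11 for each). The Gja1 region difference was lost with adjusted p-values of 0.14 to 0.24 without any of several libraries, among them F/M Tpp1-/- library 1 and Cb Tpp1-/- library 1. The Gja1 change with age was lost without any F/M library of those ages other than Tpp1-/- library 2 of 2 months (adjusted p = 0.13 to 0.37).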

How the results depend on the processing

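The number of the 10 genes that passed was within 1.5 times its value in 116 of 132 alternatives that did not leave out 1 library, and in 112 of 138 that did. In F/M at 2 months the count of 4 became 2 with only the 6 libraries compared and 0 with the libraries numbered 1 and 2 only, and ranged from 2 to 6 when 1 library was left out. The region difference at 2 months (2) became 5 with no low-count filter, 5 with the length and GC trend removed and 0 with the libraries numbered 1 and 2 only, with a range of 0 to 4 over left-out libraries. At 3 months the count in F/M (0) became 2 with only the 6 libraries compared and 1 with the trend removed. In Cb it became 1 with the trend removed, and ranged from 0 to 1 over left-out libraries. For the change from 1 to 3 months in Cb (0) it became 1 with DESeq2, 1 with no filter and 1 with the trend removed (0 to 1 over left-out libraries). For the change from 2 to 3 months in F/M (1) it became 0 with library totals, 0 with no filter, 0 with the replicate block, 2 with the trend removed and 0 with the libraries numbered 1 and 2 only (0 to 1). The cause of these shifts was not tested. With fewer libraries the fits have fewer degrees of freedom, but over all genes such fits called more in some cases and fewer in others. In F/M at 2 months 2193 passed without control library 1 and 39 without Tpp1-/- library 1, against 546 with all libraries. With the replicate block the 2-month counts stayed at 4 (F/M) and 0 (Cb), and it changed no call other than those given here and above and Aldh1l1 between regions at 1 month, which passed with it (adjusted p = 0.071). Over single genes, 2610 of 2700 values kept their side of the threshold, 46 lost it, 44 gained it and none reversed. In 176 a log2 fold change with no call in either fit had the other sign.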
